A study of Mus musculus with 3 samples.

Results

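The genes of major histocompatibility complex (MHC) class II described here are H2-Aa, H2-Ab1, H2-Eb1, H2-DMa, H2-DMb1, Cd74 and Ciita, 7 genes of 55536 measured. They were chosen by gene symbol, not by their values, and all 7 were found in each library. The RNA came from the chromatin fraction of primary bone-marrow-derived macrophages of C57BL/6J mice. The cells had been stimulated for 60 minutes with 100 ng/ml Lipid A, the part of lipopolysaccharide that activates Toll-like receptor 4. There was 1 group of 3 libraries, biological replicates 1, 2 and 3, made by total RNA-seq after depletion of ribosomal RNA from 1 µg, 250 ng and 500 ng of starting RNA. Age and sex were not collected, and all 3 libraries carried the same donor entry. The labels do not state separate animals or cultures, and p-values therefore reflect the spread of these 3 libraries alone, which can be technical. Untreated cells were not analysed here, and the values are levels after stimulation that say nothing of induction or repression.

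MHC class II molecules are dimers of an alpha and a beta chain that show peptides from endosomes to CD4+ T cells. The invariant chain, encoded by Cd74, escorts new dimers to the endosome and blocks their groove, and the DM dimer, encoded by H2-DMa and H2-DMb1, exchanges the remaining invariant chain fragment for peptide. Ciita encodes the transactivator that switches these genes on together. It does not bind DNA itself but docks on factors at the X and Y boxes of class II promoters. C57BL/6J mice carry the b haplotype, in which the E alpha chain is not made, so the E beta chain of H2-Eb1 has no usual partner. In macrophages class II genes are expressed at a low level until interferon gamma induces them through Ciita.

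Totals of 13318395, 15352661 and 15812581 expected counts fell on annotated genes in replicates 1, 2 and 3. All 12 macrophage markers were detected at a TPM (a transcript's level corrected for its length and the library total) of at least 1 in all 3 libraries, led by Mrc1 at 195 TPM ± 25.7 (SD, n = 3). In the expected-count tables, which give the levels below, none of 10 B cell markers was detected. Their summed level was 0.7, 0.88 and 0.79 TPM in replicates 1, 2 and 3, with Cd79b, Pax5 and Blk at 0 in each. A second quantification of the libraries, the estimated-count tables, did not keep this call. There the summed level was 22.0, 25.3 and 22.9 TPM and 4 of the 10 markers were detected, Fcer2a at 10.2 TPM ± 0.333, Cr2 at 5.48 ± 1.33, Ebf1 at 4.32 ± 0.132 and Ms4a1 at 3.05 ± 0.674 (SD, n = 3 each), while Cd79a, Cd79b, Pax5 and Blk had at most 0.146 TPM in a library. Of 10 dendritic cell markers, Itgax and Batf3 were detected. Itgax, which encodes CD11c and is also expressed by some macrophages, stood at 5.84, 6.56 and 1.53 TPM in replicates 1, 2 and 3. Zbtb46 stood at 0.79, 1.12 and 1.46 TPM. The lowest of the list were Flt3 with a mean of 0.05 TPM, Siglech with 0.0433 and Cd209a with 0.0167. The summed level of the list was 11.6, 13.6 and 7.8 TPM. The sum was 28.6, 28.8 and 19.2 TPM in the estimated-count tables, and there 4 of the 10 were detected. These were Itgax at 9.99 TPM ± 4.40, Batf3 at 6.47 ± 1.31, Zbtb46 at 3.34 ± 0.625 and Xcr1 at 1.92 ± 0.229 (SD, n = 3 each). In bulk RNA, fewer cells of a type and less RNA per cell cannot be told apart.

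Promoter letters are shown first because Ciita acts through the X and Y boxes, and because matched promoters stood at genes that were detected and at genes that were not. RefSeq promoters of build GRCm38.p6 (250 bases before the start site to 50 after it) were matched by symbol for H2-Aa, H2-Eb1, H2-DMa and H2-DMb1. H2-Ab1, Cd74 and Ciita were not in the table. The letters GNAAC, from the X box, followed after 15 to 40 bases by ATTGG, from the Y box, were searched on both strands. This order was found in H2-Aa, H2-Eb1 and H2-DMb1 and in 1390 of 32851 promoters of the table (4.23%). The letters were chosen with these sequences in view, so matches in class II promoters cannot be weighed against that share. Searched singly on both strands, GNAAC stood in 84.8% of promoters and ATTGG in 37.4%. The order also stood in the promoters of H2-Oa, H2-Ob and H2-Eb2, which had at most 4 expected counts in a library. The estimated-count tables differed for H2-Ob and H2-Eb2, as described with the class II region. Neither H2-DMa entry nor the H2-DMb2 entry held this order of letters. The windows below are those that overlap no annotated exon, written on the gene's strand with both sets of letters in capitals.
H2-Aa (chr17:34287862-34287909, minus strand): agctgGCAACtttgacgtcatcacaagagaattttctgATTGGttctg
H2-Eb1 (chr17:34305771-34305817, plus strand): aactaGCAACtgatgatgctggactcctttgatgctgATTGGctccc
H2-Ob (chr17:34238813-34238857, plus strand): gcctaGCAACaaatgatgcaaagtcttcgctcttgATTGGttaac
H2-Eb2 (chr17:34325538-34325584, plus strand): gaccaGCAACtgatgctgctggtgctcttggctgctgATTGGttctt
These letters were 28 bases apart in H2-Aa, 27 in H2-Eb1 and H2-Eb2 and 25 in H2-Ob, and all 4 windows ended between 38 and 90 bases before the start site. A match is a description of letters and not a bound site.

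Of the 7 genes 6, all but H2-DMb1, were detected on chromatin, and all 7 stood far below the class I heavy chain genes H2-K1 and H2-D1 of the same libraries. Of all protein-coding genes, 35.7% were detected by the same rule, and of all genes 18.3%. At a TPM of at least 5, H2-DMa and Cd74 were detected, 2 of the 7 genes, against 20.3% of coding genes. The 7 genes together held 689, 587 and 518 expected counts in replicates 1, 2 and 3. As shares of all gene counts these were 0.00517% (95% exact binomial interval 0.00479 to 0.00557), 0.00382% (0.00352 to 0.00415) and 0.00328% (0.003 to 0.00357), intervals that cover counting error only. Their summed level was 38.5, 39.5 and 32.8 TPM, which was 9.59%, 7.24% and 7.08% of the TPM of the single class I gene H2-K1. The median of log2(TPM + 1) over the 7 genes was 2.07 ± 0.21 (SD over 3 libraries), against 0.29 ± 0.07 over all protein-coding genes and 3.19 ± 0.20 over those detected.

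The classical chains were all low and close to each other. H2-Aa (chromosome 17, 34282744 to 34287823, minus strand), the A alpha chain, stood at 3.1, 2.76 and 2.6 TPM in replicates 1, 2 and 3, from 99, 83 and 62 expected counts. H2-Ab1 (chromosome 17, 34257689 to 34269419, plus strand), the A beta chain, stood at 3.26, 4.17 and 2.47 TPM, from 39, 42 and 25 counts. H2-Eb1 (chromosome 17, 34305867 to 34316674, plus strand), the E beta chain, stood at 1.76, 2.78 and 1.95 TPM, from 32, 32 and 26 counts. The libraries of all 3 genes overlapped, and replicate 2 was the highest for both beta chains and not for H2-Aa. Among the 7870 coding genes detected, 18.9% had a lower mean than H2-Aa, 23.6% a lower mean than H2-Ab1 and 11.1% a lower mean than H2-Eb1.

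The chains of the A dimer did not differ beyond their spread, and H2-Eb1 was below H2-Ab1 in 3 of 3 libraries. The difference H2-Aa minus H2-Ab1 was -0.15 ± 0.27 on the log2(TPM + 1) scale (SD, n = 3; p = 0.5, exact two-sided sign-flip permutation test). H2-Eb1 minus H2-Ab1 was -0.44 ± 0.20 (n = 3; exact p = 0.25). With 3 libraries 0.25 is the smallest p this test can give, so none of the 5 pairs compared could pass 0.05. Adjusted over the 5, p was 0.5 for H2-Aa and 0.417 for H2-Eb1. The order of H2-Aa and H2-Ab1 turned round in the estimated-count tables, where the difference was 0.18 ± 0.21.

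The DM genes were unlike each other. H2-DMa (chromosome 17, 34119541 to 34139101, plus strand), the DM alpha chain, had the highest TPM of the 7 genes. It stood at 14.4, 17.4 and 14.1 TPM in replicates 1, 2 and 3, from 99.0, 128 and 125 counts. H2-DMb1 (chromosome 17, 34153072 to 34160230, plus strand), the DM beta chain, had the lowest at 0.71, 0.41 and 0.2 TPM, from 12, 8 and 4 counts. The libraries of these genes did not overlap, and H2-DMa minus H2-DMb1 was 3.51 ± 0.29 on the log2(TPM + 1) scale, above 0 in 3 of 3 libraries (exact sign-flip p = 0.25, adjusted 0.417). The counts of H2-DMb1 are few, and the exact 95% interval in replicate 3 ran from 0.0689 to 0.648 CPM (a gene's count scaled to the library total). H2-DMb1 shared 31.4% of its 31-base words (517 of 1648) with its near copy H2-DMb2, so the split of reads between them is uncertain. H2-DMb2 held 2 expected counts in each library. In the estimated-count tables H2-DMb2 held 10.63, 14.95 and 15.02 counts in replicates 1, 2 and 3, against 18, 19.6 and 12.5 for H2-DMb1. There H2-DMb2 had more counts than H2-DMb1 in replicate 3, so the split depended on the quantification. By TPM H2-DMb2 was below H2-DMb1 there in every library, at 0.413, 0.489 and 0.502 against 1.301, 0.849 and 0.578.

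Most of the H2-DMa level was assigned to annotated transcripts that do not encode the DM alpha chain. Its 4 processed transcripts, an annotation class with no coding frame, held 12.9, 14.9 and 11.5 TPM in replicates 1, 2 and 3, which was 85.4% ± 3.92 of the gene's TPM (SD, n = 3). Its 3 coding transcripts held 1.6, 1.15 and 2.26 TPM. Counted by coding transcripts only, an alternative chosen after seeing the data, H2-DMa minus H2-DMb1 was 0.88 ± 0.48.

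The abundant processed transcripts began inside or beside Brd2, a bromodomain gene on the opposite strand that stood at 286, 413 and 388 TPM. H2-DMa-208 started 3046 bases inside Brd2 and shared 313 of its 742 bases with Brd2 exons, and it held 2.99, 6.7 and 6.94 TPM. H2-DMa-203 and H2-DMa-204 started 212 and 188 bases beyond the 5′ end of Brd2, and they held 9.07, 5.15 and 3.31 TPM and 0.8, 3.1 and 1.23 TPM. H2-DMa-203 is only 350 bases long, and its TPM came from 25.3, 9.92 and 6.83 expected counts. Replicate 1 was the highest library for H2-DMa-203 and the lowest for H2-DMa-208 and H2-DMa-204. The coding transcript H2-DMa-201 started 198 bases beyond the same end, between the starts of these processed forms, and held 0.73, 0.83 and 1.09 TPM. The other coding transcripts, H2-DMa-205 and H2-DMa-207, started 12994 and 13020 bases beyond that end and together held 0.87, 0.32 and 1.17 TPM. Without the transcripts that overlap Brd2 exons, H2-DMa stood at 11.5, 10.7 and 7.2 TPM. Whether the counting used strand is not stated, so where exons overlap, reads of H2-DMa and of Brd2 cannot be told apart. The first exon of H2-DMa-203 and of H2-DMa-204 ends at 34123108. That of H2-DMa-201 ends at 34122934, so the bases between lie in its first intron. In this chromatin RNA, reads there cannot be told apart from unspliced RNA of H2-DMa-201.

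**Figure D1:**
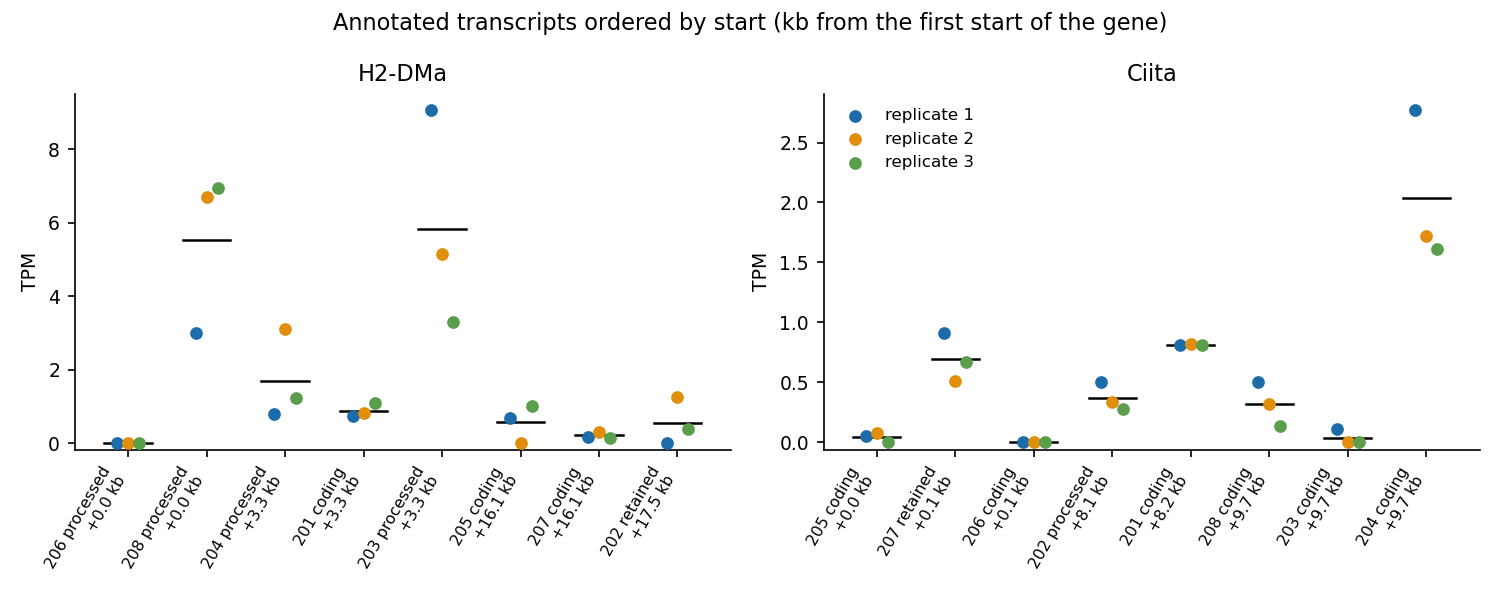
TPM (linear axes from the expected-count transcript tables) of each annotated transcript of H2-DMa, left, and Ciita, right, ordered by start position in kb from the first start of the gene. Points are the 3 libraries and bars their mean. For H2-DMa the highest means are those of the processed transcripts H2-DMa-203 (5.84) and H2-DMa-208 (5.54), and for Ciita that of the short coding transcript Ciita-204 (2.03).

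Cd74 (chromosome 18, 60803848 to 60812652, plus strand), the invariant chain, was the second highest of the 7 genes by TPM. It stood at 9.6, 8.2 and 7.89 TPM in replicates 1, 2 and 3, from 151, 119 and 106 counts, and 51.5% of the detected coding genes had a lower mean. It was above H2-Ab1 in 3 of 3 libraries, by 1.17 ± 0.29 on the log2(TPM + 1) scale (exact sign-flip p = 0.25, adjusted 0.417). A pair of coding forms carried its coding level, Cd74-201 at 3.78, 3.67 and 3.52 TPM and Cd74-202 at 2.08, 2.06 and 1.04 TPM. Cd74-202 holds an extra exon of 192 bases (60811294 to 60811485) that Cd74-201 lacks, which corresponds to the long form of the invariant chain with a thyroglobulin domain that inhibits cathepsins. Cd74-201 was above Cd74-202 in every library in these tables. In the estimated-count tables the means were 3.80 ± 1.42 for Cd74-201 and 4.20 ± 0.94 for Cd74-202, so their order depended on the quantification.

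Ciita (chromosome 16, 10480059 to 10528418, plus strand), the transactivator, stood between Cd74 and the classical chains by mean level. It stood at 5.64, 3.8 and 3.51 TPM in replicates 1, 2 and 3, from 257, 175 and 170 counts, the most counts of the 7 genes, and the annotated Ciita-201 is 6007 bases long. Replicate 1 was the highest and the other libraries lay close together. Ciita minus H2-Ab1 was 0.30 ± 0.38 on the log2(TPM + 1) scale, above 0 in 2 of 3 libraries (exact sign-flip p = 0.5, adjusted 0.5). Nlrc5, the class I counterpart of Ciita, stood at 87.4, 73.8 and 77.0 TPM.

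Ciita is transcribed in mice from alternative promoters with different first exons, known for use in dendritic cells, in B cells and after interferon gamma, in that order along the gene. The annotated transcripts fell into an upstream, a middle and a downstream start group, of which the middle began 8.12 kb and the downstream 9.69 kb after the first. The start of the coding frame is shown because each group has a start that no other group has. Ciita-206 of the upstream group and Ciita-208 of the downstream group share a further start, in an exon common to the groups. The start codon is in capitals, with up to 60 bases and only to the end of its exon.
Ciita-205 (upstream, chr16:10480144-10480426): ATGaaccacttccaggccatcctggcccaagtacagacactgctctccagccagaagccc
Ciita-201 (middle, chr16:10488373-10488424): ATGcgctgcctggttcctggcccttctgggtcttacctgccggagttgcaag
Ciita-204 (downstream, chr16:10489822-10489864): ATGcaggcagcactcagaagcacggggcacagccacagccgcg
Ciita-208 (downstream, frame from its exon 3, which other groups share, chr16:10501787-10501913): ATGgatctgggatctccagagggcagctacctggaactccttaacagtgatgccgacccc
The 3 transcripts of the downstream group held 3.38, 2.04 and 1.75 TPM in replicates 1, 2 and 3. The 2 of the middle group held 1.31, 1.16 and 1.09 TPM, and the 3 of the upstream group held 0.96, 0.59 and 0.67 TPM. The downstream group was the highest and the upstream the lowest in every library. The full-length middle form Ciita-201 was the most even, at 0.81, 0.82 and 0.81 TPM.

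In the expected-count tables the lead of the downstream group rested on Ciita-204, which has only 2 exons and held 72, 40 and 38 counts. Its second exon (10490697 to 10492234, 1538 bases) overlaps no other Ciita transcript and lies inside an intron of the longer transcripts that start upstream of it, so reads there cannot be told apart from unspliced RNA of these. Without Ciita-204 the downstream group held 0.61, 0.32 and 0.14 TPM, below the middle group in every library. It still led in the estimated-count tables without Ciita-204, at 3.97, 2.37 and 2.22 TPM, against 2.23, 1.97 and 1.72 TPM for the middle group. Nearly all of that was Ciita-208, at 3.84, 2.37 and 2.22 TPM from 36.9, 27.5 and 25.7 estimated counts, so the order of these groups without Ciita-204 depended on the quantification. By expected counts the middle group was the largest with Ciita-204 included, at 53.6% ± 6.24 of the gene's counts, against 26.6% ± 5.24 for the downstream group and 19.8% ± 1.43 for the upstream group. Most Ciita transcripts also overlap exons of Dexi on the opposite strand, by 111 bases for Ciita-201, and Dexi stood at 3.86, 5.46 and 3.87 TPM.

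**Figure D2:**
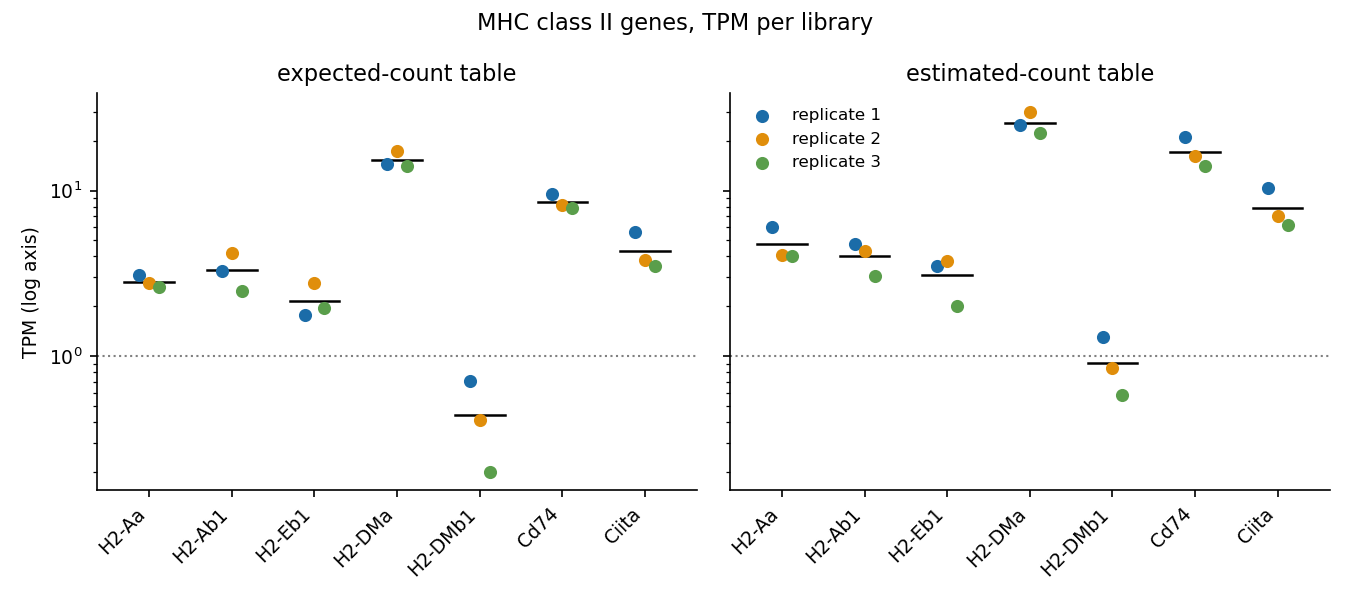
TPM of the 7 class II genes in each library, on a log axis, from the expected-count gene tables, left, and summed from the estimated-count transcript tables, right. Points are libraries, bars their mean, and the dotted line is the detection level of 1 TPM. H2-DMa is highest and H2-DMb1 lowest in both, and H2-DMb1 is the only gene with libraries under the line.

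The order of the mean levels in TPM was H2-DMa, Cd74, Ciita, H2-Ab1, H2-Aa, H2-Eb1 and H2-DMb1. By mean CPM, which is not corrected for length, Ciita (13.8) and Cd74 (8.60) stood above H2-DMa (7.89). H2-DMa exceeded Cd74 by 0.77 ± 0.23, Cd74 exceeded Ciita by 0.86 ± 0.17 and H2-Eb1 exceeded H2-DMb1 by 1.14 ± 0.39 on the log2(TPM + 1) scale, each in 3 of 3 libraries. The steps from Ciita to H2-Ab1 (0.30 ± 0.38), from H2-Ab1 to H2-Aa (0.15 ± 0.27) and from H2-Aa to H2-Eb1 (0.28 ± 0.29) did not exceed their SD. In the estimated-count tables H2-Aa stood above H2-Ab1, and Ciita exceeded H2-Aa by 0.62 ± 0.10 and H2-Ab1 by 0.80 ± 0.20, each in 3 of 3 libraries, so there Ciita stood apart from the classical chains. H2-Ab1 exceeded H2-Eb1 there by 0.31 ± 0.14 with libraries that overlapped. The estimated-count quantification gave higher TPM for all 7 genes in every library, by a median factor of 1.68, against 1.58 over the detected coding genes. There too 6 of the 7 genes were detected, against 49.8% of coding genes.

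No class II gene of the region other than these was detected in the expected-count tables. The region spans 252 kb of chromosome 17 (34092340 to 34344645), and 9 of its 15 coding or polymorphic genes were detected. H2-Oa, the DO alpha chain, H2-Eb2, a second E beta gene, and H2-Ea-ps, the E alpha gene annotated as a polymorphic pseudogene, had no expected count. With 0 counted, up to 3 counts are allowed, or 0.225, 0.195 and 0.190 CPM in replicates 1, 2 and 3. H2-Ob, the DO beta chain, which is known from B cells, had 2, 1 and 4 counts, and H2-DMb2 had 2, 2 and 2. In the estimated-count tables the retained-intron transcript H2-Ob-207 held 761, 1852 and 969 estimated counts, so the low H2-Ob level rests on the expected-count tables. H2-Eb2 had 13.5, 4.08 and 1.03 estimated counts in replicates 1, 2 and 3, so its count of 0 also rests on the expected-count tables. H2-DMb2 had 10.63, 14.95 and 15.02 estimated counts, so its count of 2 per library rests on the expected-count tables too. It stayed below 1 TPM in each library in both quantifications. The class I genes between them were detected, with Tap1, a subunit of the peptide transporter, at 9.96, 12.6 and 10.6 TPM, and Psmb9, an immunoproteasome subunit, at 1.9, 1.31 and 2.01 TPM.

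**Figure D3:**
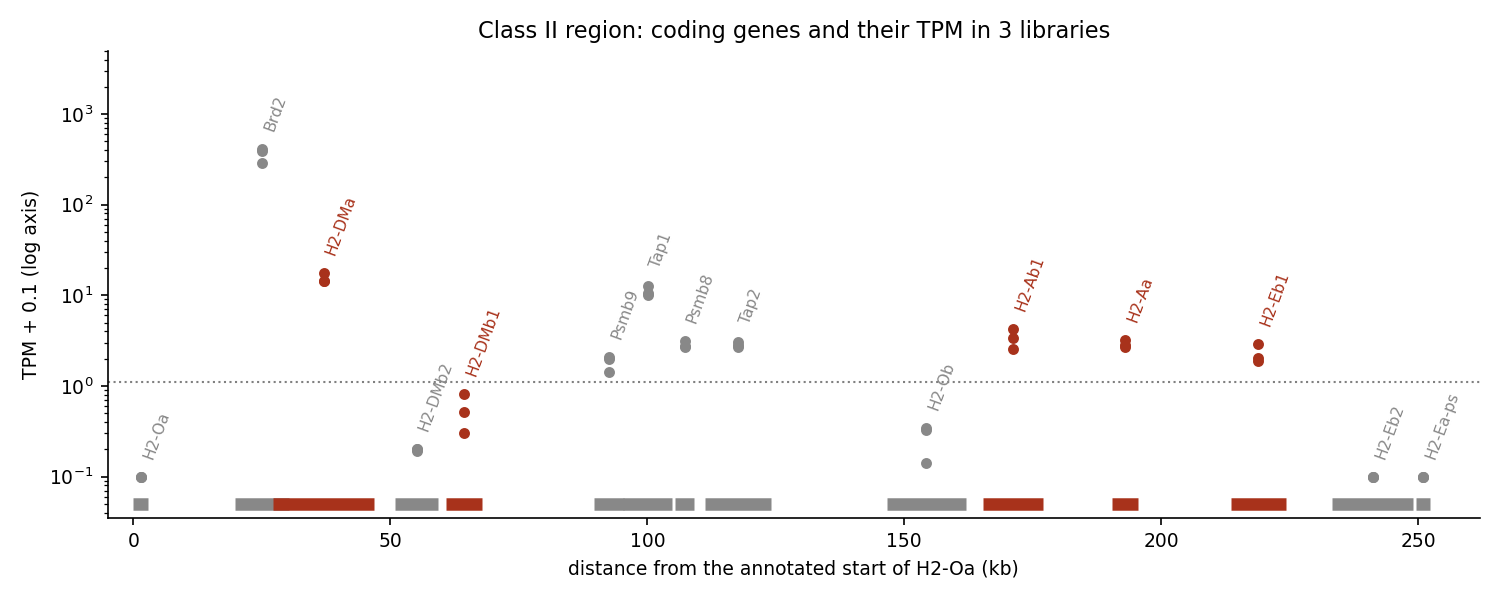
The class II region in kb from the annotated start of H2-Oa, with a bar for the span of each coding or polymorphic gene and points for TPM + 0.1 in 3 libraries on a log axis. The 5 class II genes of the region described here are in red, other genes in grey, and the dotted line is the detection level of 1 TPM. Brd2 is the highest gene, between 286 and 413 TPM, and H2-Oa, H2-Eb2 and H2-Ea-ps lie at 0.

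Lists of genes that act around class II molecules had higher median levels than the 7 genes themselves. Of the 7 genes of the enhanceosome that binds the X and Y boxes, 5 were detected, with a median log2(TPM + 1) of 2.75 ± 0.02. Nfya, which binds the Y box, stood at 63.1 TPM ± 2.66, Creb1 at 57.4 ± 5.61 and Rfx5, the DNA-binding subunit of the X box complex RFX, at 12.1 ± 3.81 (SD, n = 3 each). The other RFX subunits were the lowest, Rfxap at 0.9, 2.68 and 0.9 TPM from at most 11 counts, and Rfxank at 0.54, 1.07 and 0.79 TPM. Rfxap and Rfxank were each under 1 TPM in 2 of 3 libraries. All 7 were detected in the estimated-count tables, with Rfxap at 3.59, 6.15 and 5.03 TPM and Rfxank at 1.04, 2.26 and 1.13 TPM.

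Of 14 listed regulators of Ciita, 13 were detected, with a median of 4.75 ± 0.25. The highest were Irf1, a factor that drives the interferon gamma response of Ciita, at 302 TPM ± 52.3, and the kinases of the interferon gamma receptor, Jak2 at 86.4 ± 28.1 and Jak1 at 71.3 ± 7.56. Usf2 at 2.00 ± 0.20 and Socs1, an inhibitor of the pathway, at 0.7, 1.64 and 1.7 TPM were the lowest, and Socs1 was the gene not detected.

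The median of the endosomal processing genes was 5.54 ± 0.25, with 7 of 8 detected. Ctsb stood at 258 TPM ± 34.5, Ctsz at 99.6 ± 16.8 and Ctsd at 84.5 ± 29.0. Ctss, the cathepsin that trims the invariant chain, stood at 27.6 TPM ± 1.67, and its inhibitor Cst3 at 2.54 ± 1.10. Ifi30, a thiol reductase of endosomes, was not detected, at 0.7, 0.81 and 1.11 TPM from 10, 10 and 14 counts, but stood at 2.05, 3.28 and 2.07 TPM in the estimated-count tables, where all 8 were detected. Of the turnover genes 3 of 4 measured were detected, with a median of 4.52 ± 0.43. Cd83, which stabilises class II at the surface, stood at 176 TPM ± 28.8 and Il10, whose product lowers class II at the surface, at 26.7, 61.1 and 65.8 TPM. March1, the ubiquitin ligase of class II, was at 1.03, 1.74 and 0.83 TPM, and its relative March8 at 9.83 ± 1.22. March1 was at 11.8, 8.02 and 8.34 TPM in the estimated-count tables, where all 4 were detected. All 9 class I genes listed were detected, with a median of 5.05 ± 0.32, H2-K1 at 470 TPM ± 72.1 and H2-D1 at 375 ± 4.83. H2-K1 and H2-D1 are similar genes whose reads may be split wrongly, and the sequence they share was not measured. Others of the class I list lay among the 7 class II genes in level, Psmb8 at 2.76 ± 0.257, Tap2 at 2.74 ± 0.168 and Psmb9 at 1.74 ± 0.376.

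Across the libraries 6 of the 7 genes shared 1 order. In CPM they were highest in replicate 1 and lowest in replicate 3, and H2-DMa was the gene that did not. Among the 7544 coding genes with a mean count of 5 to 300, the range that holds the 7, 11.3% had that order, and 20.3% were highest in replicate 1. Ciita had 19.3, 11.4 and 10.8 CPM in replicates 1, 2 and 3, Cd74 11.3, 7.75 and 6.70, and H2-Aa 7.43, 5.41 and 3.92. For these 3 genes the exact 95% counting intervals of replicates 1 and 3 did not overlap, and for the other 4 they did. These intervals cover counting error only, and the share of all coding genes with intervals apart was not counted. H2-DMa had 7.43, 8.33 and 7.91 CPM.

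The order was less marked in TPM, a scale on which all coding genes together were also lowest in replicate 1. They held 189672, 239176 and 225076 TPM in replicates 1, 2 and 3. The median deviation of the 7 genes from their own mean was 0.31, -0.01 and -0.29 in replicates 1, 2 and 3 on the log2(CPM + 1) scale, against -0.07, 0.12 and -0.06 for coding genes of the same count range. On the log2(TPM + 1) scale it was 0.10, -0.02 and -0.10, against -0.17, 0.15 and 0.02, and 4 of the 7 genes were highest in replicate 1. The share of coding genes highest in replicate 1 by TPM was not counted. The libraries differed in starting RNA. The summed dendritic cell markers were lowest in replicate 3, where Itgax stood at 1.53 TPM, against 5.84 and 6.56 in replicates 1 and 2. Clec10a, Ccr7, Flt3 and Siglech were also lowest in replicate 3, but Batf3, Zbtb46, Xcr1 and Clec9a were lowest in replicate 1. The part of starting RNA or of dendritic cells in the order of the class II genes was not tested.

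**Figure D4:**
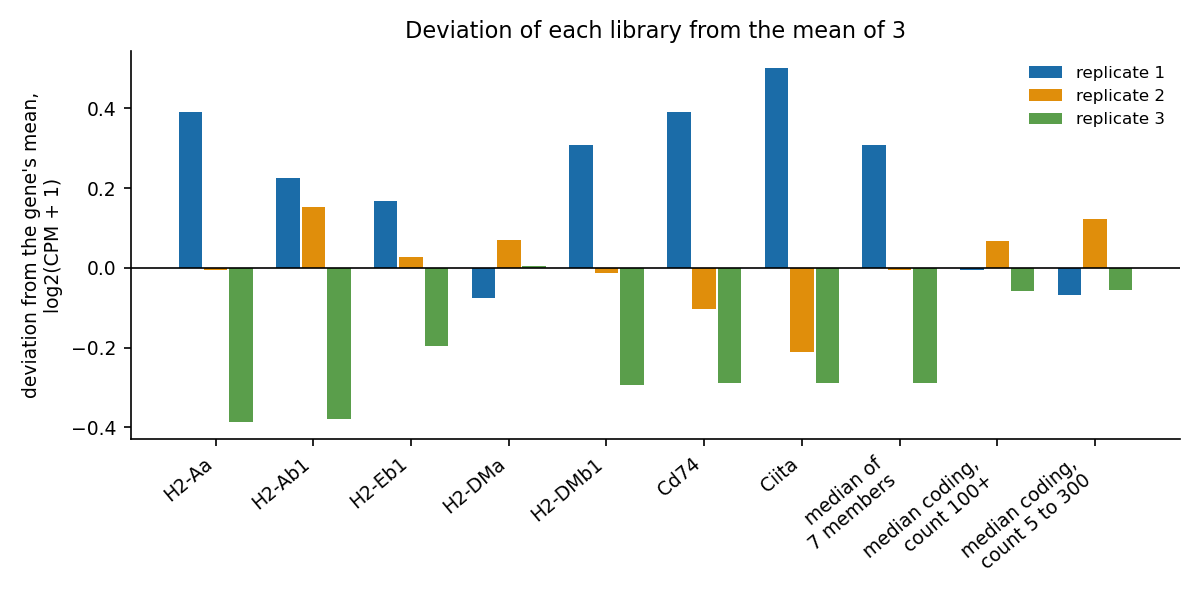
Deviation of each library from a gene's mean over 3 libraries, on the log2(CPM + 1) scale, for the 7 genes, their median and the median of coding genes in 2 ranges of mean count. Replicate 1 is above and replicate 3 below 0 for all but H2-DMa, while the median of coding genes stays between -0.07 and 0.12.

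Retained-intron transcripts keep an intron and were compared with the coding transcripts of the same gene, as far as the annotation and the quantification separate these classes. In this chromatin RNA, reads in a retained intron cannot be told apart from unspliced RNA of the same gene. Of 5601 genes tested, 35.5% had more retained-intron TPM and 31.8% more coding TPM (limma, adjusted p under 0.05), and the median log2 ratio was 0.08. Of the 7 genes 6 could be tested, 1 called for retained introns, 3 for coding transcripts and 2 for neither, with a median ratio of -0.25. H2-DMb1 was under the minimum level for the test.

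H2-Ab1 leaned to retained-intron transcripts, on 39, 42 and 25 expected counts of the whole gene in replicates 1, 2 and 3. Its 4 retained-intron transcripts held 2.18, 3.35 and 2.15 TPM and its coding transcripts 1.08, 0.83 and 0.32 TPM in replicates 1, 2 and 3, a log2 ratio of 1.33 ± 0.26 (SE, limma adjusted p = 0.00198). The ratio was above 0 in 3 of 3 libraries and stayed called under all 9 alternatives that could test it, with adjusted p from 6.79e-05 to 0.0192.

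Ciita leaned to coding transcripts, with retained-intron TPM of 0.91, 0.51 and 0.67 against coding TPM of 4.24, 2.94 and 2.56, a log2 ratio of -1.63 ± 0.22 (SE, limma adjusted p = 0.00025). Its coding class includes Ciita-204, whose second exon is intronic for the longer transcripts. Ciita-204 held 2.77, 1.72 and 1.61 TPM of this coding TPM in replicates 1, 2 and 3, and the ratio without it was not computed. As the mean per annotated transcript, with Ciita-204 included, the ratio was 0.20 (limma adjusted p = 0.325).

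The remaining ratios were less settled. Cd74 had a log2 ratio of -0.69 ± 0.21 (limma adjusted p = 0.0176), which was 0.20 in the estimated-count tables (adjusted p = 0.241) and lost its call without replicate 2 (-0.49, adjusted p = 0.0852). H2-DMa had -1.20 ± 0.39 (limma adjusted p = 0.0249), with replicate 2 at 0.09, and lost its call without replicate 1 or replicate 3 (adjusted p = 0.113 and 0.0671). H2-Aa was at 0.18 ± 0.24 (limma adjusted p = 0.534). H2-Eb1 was at 0.55 ± 0.35 (limma adjusted p = 0.197), at -1.17 in the estimated-count tables (adjusted p = 0.0164) and at 1.08 without replicate 1 (adjusted p = 0.0122), opposite directions that both passed the threshold.

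**Figure D5:**
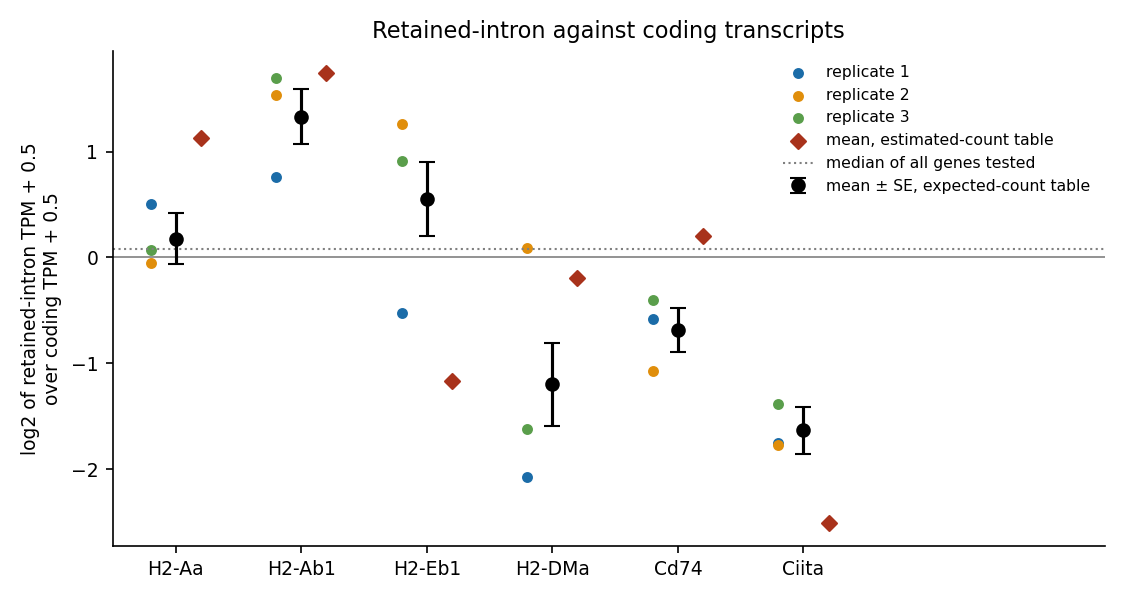
Log2 ratio of retained-intron to coding TPM, 0.5 added to each, for the 6 class II genes tested. Black points are limma means with their SE, coloured points the 3 libraries, red diamonds the mean from the estimated-count tables, and the dotted line the median of all genes tested (0.08). H2-Ab1 lies above 0 and Ciita below 0 in every library and in both quantifications.

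The coding genes closest in level to each gene, by root mean square difference of log2(TPM + 1) over the 3 libraries, were in none of the lists above. They were Mgll (0.0409) and 4930453N24Rik (0.0431) for H2-Aa, and Fbxo40 (0.0607) and Wdr61 (0.0729) for H2-Ab1. For H2-Eb1 they were Ulk2 (0.0376) and Angpt2 (0.0381), and for H2-DMa Rpl13a (0.0357) was among them. For Cd74 they were Atg4a (0.0371) and Rhot2 (0.0646), and for Ciita Ing3 and F13a1 (0.141 each). With 3 libraries this measure reads mostly the level.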

How the data were processed

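Chromatin-fraction RNA of 3 stimulated macrophage libraries was measured by total RNA-seq. Per the file headers, expected counts and TPM stood in a gene and a transcript table per library, with RSEM's column names, and estimated counts and TPM in a further transcript table, with kallisto's. The authors' deposited text files gave mm10, GENCODE M21 and replicates that were not pooled. Programs, versions and strand setting: not given in the sources used here. The TPM the authors deposited was scaled over all rows, and coding genes held a summed 189672, 239176 and 225076 TPM, so TPM understates them. Rows that name no gene held 1.40%, 0.352% and 0.354% of deposited expected counts and stayed out of totals. The posterior SD of the expected count, a deposited column, was at most 2.18 for the 7 genes and 0 for H2-DMb1.

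Members and lists were chosen with earlier results of these data known, and the promoter letters with these sequences in view. Levels are TPM of the gene table, and differences are on log2(TPM + 1). The isoform ratio, log2 of retained-intron TPM + 0.5 over coding TPM + 0.5, was tested with limma 3.58.1 (intercept only, variance trend on the mean summed TPM, Benjamini-Hochberg) over genes that have both classes at a mean sum of 1 TPM or more, and checked on simulated data. Named are the 7 genes, listed genes with preference for the 3 highest and 2 lowest of each list, and the 2 coding genes closest in level. R was 4.3.3, python 3.11.15, scipy 1.17.1, numpy 2.4.6 and pandas 2.3.3. Chi-square per degree of freedom between library pairs was 15.3 to 36.9, and no library repeated another. The listed symbols H2-Ea, Marchf1 and Marchf8 matched no symbol in the tables. The values of 1 regulator of Ciita and of 1 gene close in level to H2-DMa are not reported here.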

Additional observations from a re-analysis of the deposited data

Results flagged for a closer look

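In the estimated-count tables, which the levels above do not rest on, the retained-intron transcript H2-Ob-207 of the DO beta chain gene held 761, 1852 and 969 estimated counts in replicates 1, 2 and 3, or 40.4, 81.4 and 42.5 TPM. It was looked at because the expected-count tables gave the same transcript 0, 0 and 3 counts, and because these values exceed the 3 counts that a count of 0 allows. The other H2-Ob transcripts had at most 2 estimated counts in a library. None of the 1111 31-base words of H2-Ob-207 occurred in an annotated transcript of another gene. Which table is nearer to the RNA was not tested.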

How the results depend on the processing

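The deposited tables hold 1 group, and no paired analysis was possible because the labels gave no second group. The median of log2(TPM + 1) over the 7 genes, 2.07, was 2.52 in the estimated-count tables, 1.71 with a pseudocount of 0.1, 2.68 as log2(CPM + 1) and 3.97 with TPM rescaled over protein-coding genes, and 1.97 to 2.18 with 1 library left out. At a TPM of at least 5, 2 genes were detected, against 20.3% of coding genes. The median SD was 0.24 on log2(TPM + 1) and 0.33 on log2(CPM + 1). H2-Aa minus H2-Ab1 turned to 0.18 in the estimated-count tables and to 0.94 on log2(CPM + 1), which is not per length, and the other 4 pairs kept their direction throughout. In the estimated-count tables the medians of the class II relatives, enhanceosome, Ciita regulators, endosomal, turnover and class I lists were 0.14, 3.46, 5.72, 6.16, 5.47 and 6.10, with 1 relative detected, and on log2(CPM + 1) those from enhanceosome to turnover were 3.03, 5.37, 6.16 and 5.36. Of the B cell markers 4 and of the dendritic cell markers 4 were detected in the estimated-count tables. Over all genes, 3201 leaned to retained introns in the estimated-count tables and 1989 in the expected-count tables, and 1116 leaned to coding transcripts at a minimum of 5, where fewer genes are tested, and 1783 at 1. The ratio of Ciita had the opposite sign per transcript (0.20) but kept its sign in the estimated-count tables (-2.51). The ratios of Cd74 (0.20) and H2-Eb1 (-1.17) had the opposite sign in the estimated-count tables. The cause of these reversals was not tested. The H2-DMa ratio also lost its call per transcript (-0.18), with a pseudocount of 0.1 (-2.07) and in the estimated-count tables (-0.19), and the Cd74 ratio per transcript (-0.14). H2-Aa passed the threshold per transcript (0.76) and in the estimated-count tables (1.13). With no minimum H2-DMb1 had a ratio of -0.60 (limma adjusted p = 0.034). Depth limits H2-DMb1 and the classical beta chains, at 4 to 42 counts.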
